A study of Mus musculus with 9 samples.

Results

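C2C12 myoblasts, an established mouse line of muscle precursor cells, were compared after an siRNA against Cugbp1 and after an siRNA against Mbnl1, directly and without the controls as reference. The 6 siRNA arrays, 3 for each target, were chosen from the sample titles among the 9 arrays of the series, and the other 3 carry RNA from cells given a control siRNA. All cells grew in serum-containing medium as proliferating myoblasts and were harvested 48 h after transfection, and 100 ng of total RNA went onto a whole-transcript exon array, on which single exons of a gene have their own probe sets. The siRNA sequences and the protein levels of the targets were not analysed here, and whether the replicates came from different cultures is not stated in the labels, so p-values reflect array-to-array spread alone, and that spread may be technical. In the fit the control arrays entered only the estimate of spread, but they also took part in choosing probe sets and in calculating gene values. They are quoted below to show the level in cells given the control siRNA.

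Celf1 is the current symbol of the gene labelled Cugbp1. Its protein, CELF1, binds GU-rich stretches of RNA and MBNL1 binds short motifs around a GC core, and both steer alternative splicing and the stability, localisation and translation of mRNAs in muscle. In heart and skeletal muscle the proteins act on overlapping sets of exons, often in opposite directions, and in myotonic dystrophy MBNL proteins are held in nuclear foci by expanded CUG repeats while CELF1 activity is raised.

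The arrays were closely matched, with median intensities of 42.3 to 42.9 on the 6 siRNA arrays and 43.6 to 43.8 on the controls. In a principal component analysis of the gene values the first component, with 54.2% of the variance, separated the controls from both siRNA groups, and the second, with 17.5%, separated the siRNA groups, with scores of -10.22 to -7.33 on the Cugbp1 siRNA arrays and 6.41 to 7.44 on the Mbnl1 siRNA arrays. Myoblast markers were expressed in both groups: Myod1, in log2 intensity with the SD of 3 arrays, stood at 9.91 ± 0.05 after Cugbp1 siRNA and 9.77 ± 0.18 after Mbnl1 siRNA, and the intermediate filament gene Des at 11.87 ± 0.03 and 11.97 ± 0.07. Pax7 (7.64 in both groups) and Msc (7.79 in both) were the dimmest markers tested, and Myog, also listed, was not tested. Of 9 myoblast markers 1 was called at a limma adjusted p under 0.05 (11.1%, beside 9.38% of all genes). This was Cdh15, 0.30 higher after Cugbp1 siRNA (limma adjusted p = 0.02121). Its call was lost without Cugbp1 siRNA replicate 3 or Mbnl1 siRNA replicate 2 or 3. The summed linear intensity of the 9 markers was 14390 to 14752 after Cugbp1 siRNA and 13560 to 14947 after Mbnl1 siRNA. The brightest, Chrna1 (12.32 and 12.29) and Des, weighed most in this sum. The summed intensity of 23 markers of other cell types was 6725 to 7100 and 7005 to 7232. Of the 23, 4 were called (17.4%, beside 9.38% of all genes). All 4 were higher after Mbnl1 siRNA (5.08% of all genes were), led by the macrophage marker Cd68 (8.26 ± 0.10 against 8.79 ± 0.04). That count was 3 without Cugbp1 siRNA replicate 2, 2 without Cugbp1 siRNA replicate 1 or Mbnl1 siRNA replicate 1, and 1 without the other 3 siRNA arrays. The part of these markers in the results was not tested.

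Each siRNA lowered its own target and left the other near the control level. Celf1 read 8.60, 8.60 and 8.80 after Cugbp1 siRNA, 9.99, 10.10 and 10.08 after Mbnl1 siRNA and 10.11, 10.14 and 10.14 in the controls. The Cugbp1 siRNA arrays lay below all others, and the difference of Cugbp1 siRNA minus Mbnl1 siRNA was -1.39 (SE 0.06, limma adjusted p = 1.276e-06), a 2.62-fold gap. Mbnl1 read 11.43, 11.51 and 11.56 after Cugbp1 siRNA, 10.05, 10.10 and 10.18 after Mbnl1 siRNA and 11.47, 11.46 and 11.44 in the controls. Here the Mbnl1 siRNA arrays lay below all others, with a difference of 1.39 (SE 0.05, limma adjusted p = 2.717e-07), so that the depletion of each mRNA relative to the other siRNA was of the same size. Of the 25 Celf1 probe sets 24 were lower with the siRNA against it, 20 of them at least 2-fold, as were 19 of the 23 Mbnl1 probe sets, 16 at least 2-fold. The other 7 measured members of the CELF and MBNL family (Celf2 to Celf6, Mbnl2 and Mbnl3) were not called.

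The siRNA groups differed in the expression of 1186 of 12646 genes tested (9.38%), each called at a limma Benjamini-Hochberg adjusted p under 0.05. Of these, 544 (4.3% of the genes tested) were higher after Cugbp1 siRNA and 642 (5.08%) higher after Mbnl1 siRNA. Most differences were small: the median size of a called difference was 0.26 on the log2 scale, and the median difference of all genes was 0.0069. Differences of at least 1.5-fold were found in 58 called genes (0.459%), 12 (0.0949%) higher after Cugbp1 siRNA and 46 (0.364%) higher after Mbnl1 siRNA, and 10 genes, targets included, were at least 2-fold apart. The number of called genes was lower without Cugbp1 siRNA replicate 2 (768), Mbnl1 siRNA replicate 1 (677), replicate 2 (637) or replicate 3 (681), and was 641 when probe sets of low intensity were kept.

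**Figure D1:**
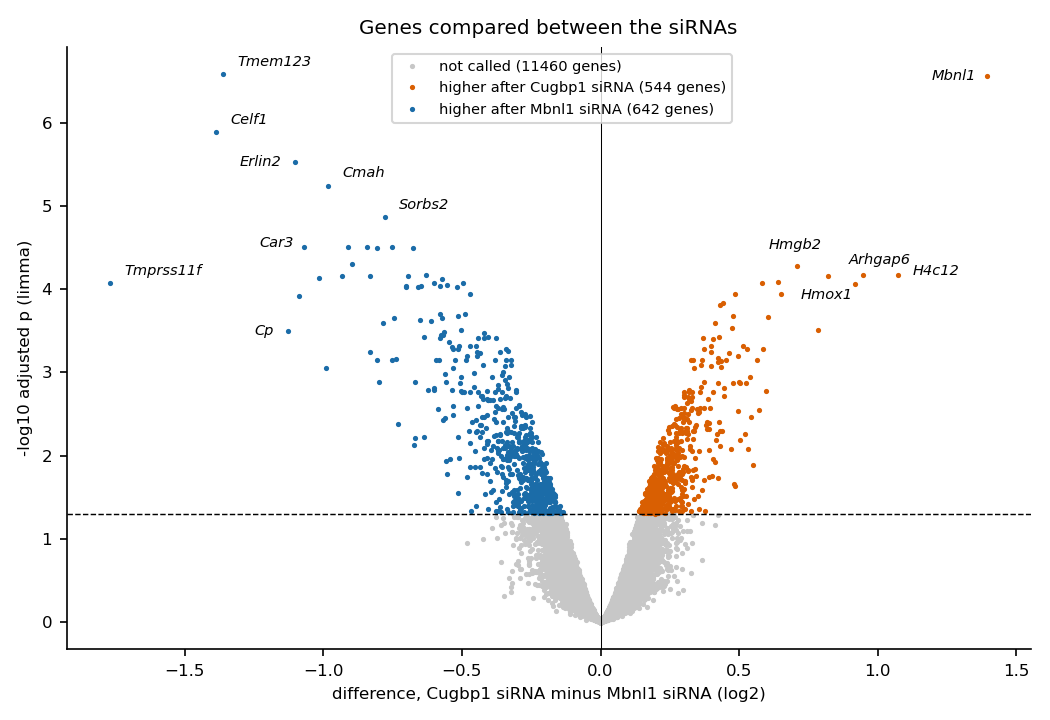
Each point is a gene, placed by the difference of Cugbp1 siRNA minus Mbnl1 siRNA (log2, x axis) and by -log10 of the limma adjusted p (y axis), with the dashed line at an adjusted p of 0.05. The 642 blue genes were higher after Mbnl1 siRNA and reach further from 0 than the 544 orange genes higher after Cugbp1 siRNA, apart from the target Mbnl1.

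The control arrays placed the called genes. Among the 544 genes higher after Cugbp1 siRNA, the control mean lay between the siRNA means for 327, below both for 152 and above both for 65. Among the 642 higher after Mbnl1 siRNA, it lay between them for 272, below both for 343 and above both for 27. Over all tested genes, called or not, with a difference towards Cugbp1 siRNA, these counts were 1395, 3072 and 2194. Over all those with a difference towards Mbnl1 siRNA they were 964, 3419 and 1602, so a control mean below both was common among uncalled genes too.

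Besides Mbnl1, Arhgap6, Ngfr and Hmox1 had the largest differences towards Cugbp1 siRNA among genes with at least 5 probe sets. Leading genes on at least 5 probe sets, here and below, were named only if the siRNA groups did not overlap. That condition held for 29.5% of all genes tested. Arhgap6, a GTPase-activating protein, read 8.30, 8.45 and 8.28 after Cugbp1 siRNA, 7.54, 7.37 and 7.29 after Mbnl1 siRNA and 7.06 ± 0.05 in the controls. The groups did not overlap, and the difference was 0.94 (SE 0.07, limma adjusted p = 6.64e-05), with both siRNA groups above the controls. Ngfr, the low-affinity neurotrophin receptor, read 9.09, 9.13 and 8.85 after Cugbp1 siRNA against 8.03, 8.11 and 8.18 after Mbnl1 siRNA, while the controls stood at 8.12 ± 0.08. The Cugbp1 siRNA arrays lay above all others and the Mbnl1 siRNA arrays near the controls, with a difference of 0.92 (SE 0.08, limma adjusted p = 8.62e-05). Hmox1, the heme-degrading enzyme heme oxygenase 1, read 10.20, 10.07 and 10.04 after Cugbp1 siRNA and 9.39, 9.25 and 9.20 after Mbnl1 siRNA, with the controls between at 9.51 ± 0.07. The difference of 0.82 (SE 0.06, limma adjusted p = 6.994e-05) was without overlap.

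Hmgb2, a chromatin protein of dividing cells, and Cdk6, the cyclin D partner kinase, were set apart by low values after Mbnl1 siRNA. Hmgb2 read 8.38, 8.53 and 8.52 after Cugbp1 siRNA and 7.81, 7.74 and 7.76 after Mbnl1 siRNA, beside 8.35 ± 0.05 in the controls (difference 0.71, SE 0.05, limma adjusted p = 5.247e-05). Cdk6 read 9.81, 9.89 and 10.01 against 9.21, 9.23 and 9.32, with the controls at 10.03 ± 0.03 (difference 0.65, SE 0.06, limma adjusted p = 0.0001142). In both genes the Cugbp1 siRNA arrays lay close to the controls and the Mbnl1 siRNA arrays below them. The thrombin receptor F2r did the reverse: it stood at 11.07 ± 0.04 after Cugbp1 siRNA, 10.49 ± 0.04 after Mbnl1 siRNA and 10.55 ± 0.06 in the controls. The alarmin Il33 (8.36 ± 0.12 against 7.82 ± 0.10) and Prr9 (9.76 ± 0.06 against 9.17 ± 0.12) were above the controls in both siRNA groups, and the sialomucin Podxl was 0.61 higher after Cugbp1 siRNA. The remaining leading genes were Zfp101, Krt13, Ptprn and Chrng, with differences of 0.54 to 0.78. Among genes resting on 3 or 4 probe sets, the replication-dependent histone gene H4c12 led with 9.53 ± 0.07 against 8.45 ± 0.06, but it has near-identical copies and its assignment is uncertain. In addition, 1 of its 4 probe sets read 12.94 after Cugbp1 siRNA, 12.78 after Mbnl1 siRNA and 12.92 in the controls. That probe set differed far less than the gene value.

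The leading genes in the other direction reached larger differences. Tmem123, which encodes a cell-surface mucin-like protein, read 9.86, 9.88 and 9.98 after Cugbp1 siRNA, 11.29, 11.24 and 11.28 after Mbnl1 siRNA and 10.68, 10.70 and 10.69 in the controls. The siRNA groups lay on opposite sides of the controls, and the difference of -1.36 (SE 0.04, limma adjusted p = 2.584e-07) was close to those of the targets. Erlin2, an endoplasmic reticulum lipid-raft protein, showed the same order, with 8.38 ± 0.01, 9.48 ± 0.09 and 8.99 ± 0.05 after Cugbp1 siRNA, after Mbnl1 siRNA and in the controls (difference -1.10, SE 0.05, limma adjusted p = 2.936e-06). Sorbs2, a sarcomere and focal adhesion adaptor, followed it too, at 7.19 ± 0.05, 7.97 ± 0.05 and 7.50 ± 0.02 (difference -0.78, SE 0.05, limma adjusted p = 1.363e-05).

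In a further group of genes the Cugbp1 siRNA arrays stood near the controls. Stmn4, a microtubule-destabilising stathmin, read 7.20, 7.41 and 7.40 after Cugbp1 siRNA and 8.55, 8.21 and 8.51 after Mbnl1 siRNA, with controls of 7.35 ± 0.12 (difference -1.09, SE 0.10, limma adjusted p = 0.0001216). Car3, a muscle carbonic anhydrase, read 9.58, 9.58 and 9.52 against 10.78, 10.48 and 10.62, with controls of 9.41 ± 0.07 (difference -1.07, SE 0.07, limma adjusted p = 3.133e-05). Cd34, a sialomucin of progenitor cells, was 8.23 ± 0.04 against 9.13 ± 0.12 with controls of 8.26 ± 0.07, and Hpgd, the prostaglandin-degrading dehydrogenase, 7.41 ± 0.13 against 8.24 ± 0.07 with controls of 7.42 ± 0.03. As the naming rule required, the siRNA groups did not overlap in any of these 4 genes. The copper carrier ceruloplasmin, Cp (7.27 ± 0.11 against 8.40 ± 0.21), the glutathione transferase Gstk1 (7.17 ± 0.09 against 8.08 ± 0.05) and the guidance molecule Sema3d (8.21 ± 0.10 against 9.05 ± 0.06) had control means below both siRNA groups. Cmah, which hydroxylates sialic acid, differed by -0.98 (limma adjusted p = 5.638e-06). Of the genes on 3 or 4 probe sets, the serine protease gene Tmprss11f (6.33 ± 0.34 against 8.10 ± 0.15) had the largest difference measured, -1.77, and Rgs2, a regulator of G protein signalling, was 8.20 ± 0.16 against 9.21 ± 0.11. The low-intensity cut-off for keeping probe sets was applied to the mean over all 9 arrays. The Tmprss11f means after Cugbp1 siRNA and in the controls (6.78) lay below that cut-off, so the size of its difference is uncertain.

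**Figure D2:**
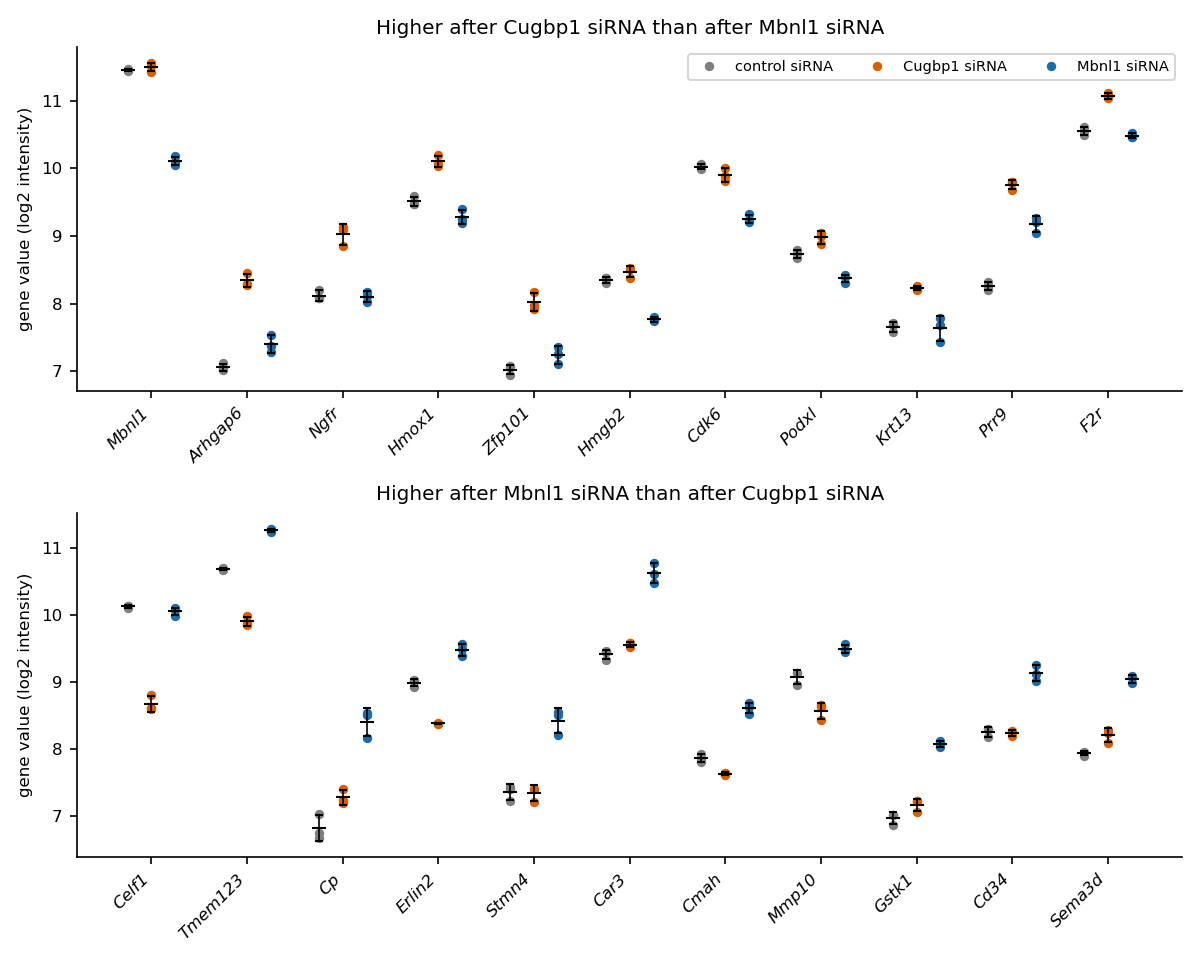
Gene values (log2 intensity) of both targets and of 10 leading genes in each direction, with 1 point per array, and the mean and SD of 3 arrays as a bar. Tmem123 and Erlin2 lie on opposite sides of the grey controls after the 2 siRNAs, Ngfr departs from them after Cugbp1 siRNA and Cd34 after Mbnl1 siRNA.

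The extracellular matrix genes that passed the test were higher after Mbnl1 siRNA. Of 47 matrix genes other than collagens 17 (36.2%, beside 9.38% of all genes) were called, all 17 higher after Mbnl1 siRNA (5.08% of all genes were), with a median difference of -0.10 over the 47 beside 0.0069 over all genes. Periostin, Postn, an adhesion protein of remodelling matrix, read 7.49, 7.78 and 7.95 after Cugbp1 siRNA and 8.58, 8.52 and 8.60 after Mbnl1 siRNA (difference -0.83, SE 0.09, limma adjusted p = 0.0005701), and 7.52 ± 0.04 in the controls. Tenascin C, Tnc, read 10.67, 10.52 and 10.66 against 11.25, 11.31 and 11.37, with controls of 10.72 ± 0.04 (difference -0.69, SE 0.05, limma adjusted p = 6.994e-05). In both genes every Mbnl1 siRNA array exceeded every other array. For Postn 2 of the Cugbp1 siRNA arrays also exceeded every control array. The fibrillin gene Fbn1, which encodes the main microfibril protein, followed with 9.31 ± 0.06 against 9.88 ± 0.04, and the mindin gene Spon2 with 7.38 ± 0.06 against 8.03 ± 0.10. Fibronectin, Fn1, among the brightest genes of the list, was 13.02 ± 0.03 after Cugbp1 siRNA, 13.36 ± 0.04 after Mbnl1 siRNA and 13.15 on each control array (difference -0.34, SE 0.04, limma adjusted p = 0.0007104). Of the 32 collagens 3 were called, at 9.38% the share of all genes tested (9.38%). Each of the 3 was higher after Mbnl1 siRNA (5.08% of all genes were): Col8a1 (-0.33), Col1a2 (-0.25) and Col18a1 (-0.18). The median of the 32 was 0.0077. Col18a1 lost its call when any of the 6 siRNA arrays was left out, with limma adjusted p of 0.0704 to 0.177.

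Among enzymes that cut or crosslink the matrix, most calls had the same direction. Of 35 genes 9 were higher after Mbnl1 siRNA and 1 after Cugbp1 siRNA (28.6% called, beside 9.38% of all genes; median -0.09). Plat, the tissue plasminogen activator, read 8.25, 8.37 and 8.31 after Cugbp1 siRNA and 9.10, 9.07 and 9.01 after Mbnl1 siRNA, with controls of 8.36 ± 0.05 (difference -0.75, SE 0.05, limma adjusted p = 3.133e-05). Mmp2, a gelatinase, was 9.32 ± 0.11 against 9.78 ± 0.01, and P3h2, a collagen prolyl hydroxylase, 8.04 ± 0.18 against 8.46 ± 0.09. The single gene of the list higher after Cugbp1 siRNA, the procollagen proteinase enhancer Pcolce (0.14), was not called when any of the 6 siRNA arrays was left out, with adjusted p of 0.0598 to 0.156.

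The stromelysin Mmp10 and the macrophage elastase Mmp12, which lie in the same gene cluster, both stood below the control level after Cugbp1 siRNA and above it after Mbnl1 siRNA. Mmp10 read 8.43, 8.62 and 8.66 after Cugbp1 siRNA, 9.57, 9.49 and 9.45 after Mbnl1 siRNA and 9.14, 9.13 and 8.96 in the controls (difference -0.93, SE 0.07, limma adjusted p = 6.84e-05). Mmp12 read 7.51, 7.56 and 7.20, then 8.29, 8.32 and 8.07, and 7.75, 7.72 and 7.64 in the controls (difference -0.81, SE 0.09, limma adjusted p = 0.0007074). No group overlapped another in either gene, which for the siRNA groups was a condition of naming. Matrix metalloprotease promoters are a textbook place of the AP-1 element TGANTCA, so RefSeq start-site windows (GRCm38.p6, 250 bases before to 50 after the start) are shown with every match in capitals, searched on both strands. Mmp10 has 1 window, on chr9:7502092-7502391 (plus strand), with a match that begins at position -63. Mmp12 has 2 windows; the one on chr9:7347124-7347423 (plus strand) has a match at -44 and the other none.
Mmp10: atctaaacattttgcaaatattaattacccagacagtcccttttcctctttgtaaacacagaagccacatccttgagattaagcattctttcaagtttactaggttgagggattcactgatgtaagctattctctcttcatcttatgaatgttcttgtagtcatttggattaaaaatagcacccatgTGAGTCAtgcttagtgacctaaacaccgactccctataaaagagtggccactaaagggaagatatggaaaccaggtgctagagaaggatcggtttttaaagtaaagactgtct
Mmp12: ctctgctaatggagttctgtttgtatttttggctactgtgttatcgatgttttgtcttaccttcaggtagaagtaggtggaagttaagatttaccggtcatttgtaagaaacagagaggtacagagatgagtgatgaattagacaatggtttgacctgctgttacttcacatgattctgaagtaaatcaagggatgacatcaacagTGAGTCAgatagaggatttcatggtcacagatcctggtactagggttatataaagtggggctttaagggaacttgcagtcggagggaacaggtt
Such a match stood in 7.81% of the 32851 promoter windows in the table, in 5.4% of those of genes tested on the arrays, and in 5.37% and 5.15% of those of genes called higher after Cugbp1 siRNA and after Mbnl1 siRNA. Within the list of matrix proteases and crosslinking enzymes 2 of 22 windows had a match (9.09%), so most windows of that list had none.

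**Figure D3:**
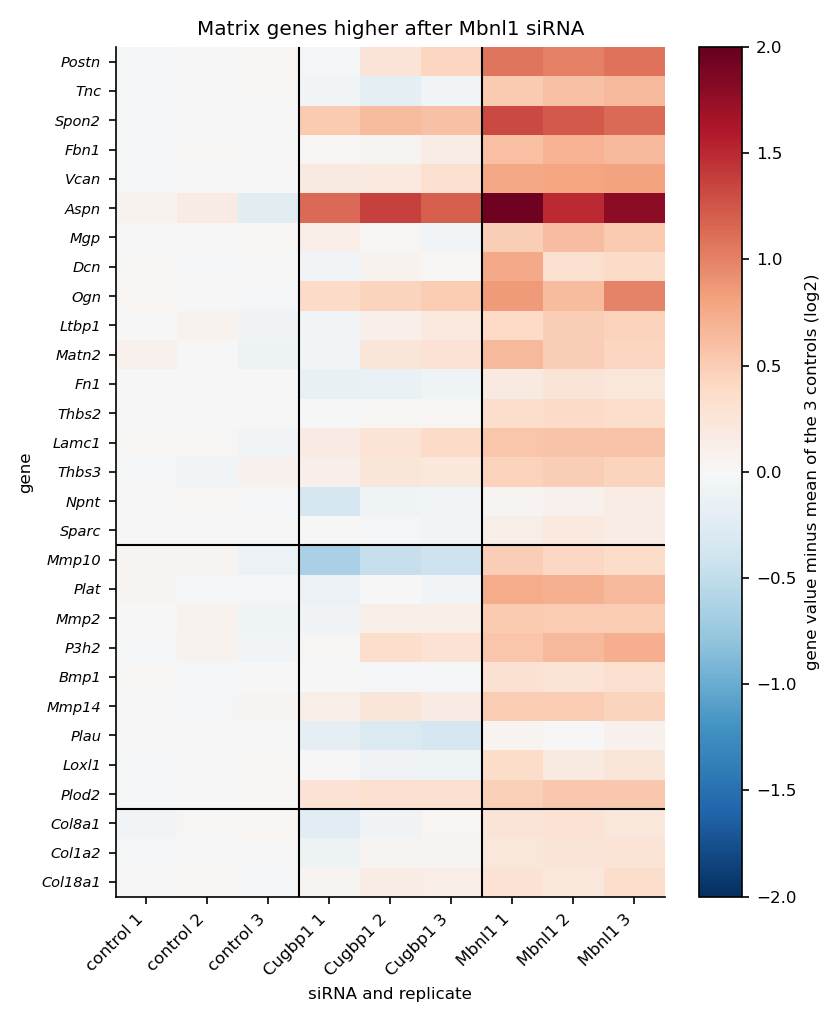
Matrix genes called higher after Mbnl1 siRNA (rows: 17 matrix proteins, 9 proteases and crosslinking enzymes, 3 collagens) on the 9 arrays (columns), coloured by the gene value minus the mean of the 3 controls (log2). The Mbnl1 siRNA arrays are the redder in every row, and Mmp10 and Plau are below the controls after Cugbp1 siRNA.

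Receptors and signals that act on the matrix were called in both directions. Of 35 integrin and focal adhesion genes 5 were higher after Mbnl1 siRNA and 2 after Cugbp1 siRNA (20%, beside 9.38% of all genes; median -0.02). Itgb3, the integrin subunit that binds vitronectin and fibronectin, stood at 9.03 ± 0.11 after Cugbp1 siRNA, 9.64 ± 0.06 after Mbnl1 siRNA and 9.20 ± 0.05 in the controls (difference -0.61, SE 0.06, limma adjusted p = 0.0002419). Itgb8, which activates latent TGF-beta, differed by -0.41, and the caveolin Cav1 by 0.33 in the other direction. In the TGF-beta and BMP list 4 of 32 genes were higher after Mbnl1 siRNA and 1 after Cugbp1 siRNA (15.6%, median -0.03), led by the latent TGF-beta binding protein Ltbp1 (-0.37) and, in the other direction, by Smad5 (0.27). Ccn2, connective tissue growth factor, was 9.85 ± 0.09 against 10.29 ± 0.04. The 5 integrin genes numbered 2 without Cugbp1 siRNA replicate 2, Mbnl1 siRNA replicate 1 or replicate 2 and 3 without Mbnl1 siRNA replicate 3, and the 4 TGF-beta genes numbered 1 without Mbnl1 siRNA replicate 1 and 2 without Cugbp1 siRNA replicate 1 or 2 or Mbnl1 siRNA replicate 2 or 3.

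Muscle genes were called at shares near or below the 9.38% of all genes. Of 34 myogenic regulators and fusion genes 4 were higher after Cugbp1 siRNA (4.3% of all genes were) and none after Mbnl1 siRNA (11.8% by limma, median 0.02). Mymk, the myoblast fusion protein myomaker, read 8.57, 8.40 and 8.55 after Cugbp1 siRNA, 8.08, 7.89 and 8.04 after Mbnl1 siRNA and 7.96 ± 0.07 in the controls. The Cugbp1 siRNA arrays lay above all others (difference 0.50, SE 0.07, limma adjusted p = 0.001321). The satellite cell regulator Myf5 was 10.09 ± 0.02 against 9.89 ± 0.18, and its groups overlapped; without Mbnl1 siRNA replicate 1 its difference was 0.27 with an adjusted p of 0.0145. Of 44 sarcomere and differentiation genes 2 were higher after Mbnl1 siRNA (4.55%, median -0.06), Car3 and the ubiquitin ligase Fbxo32, with -0.30. The count of 4 was 2 without Cugbp1 siRNA replicate 3 or Mbnl1 siRNA replicate 3 and 1 without Mbnl1 siRNA replicate 2.

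The embryonic acetylcholine receptor subunit Chrng was 8.01, 8.07 and 7.83 after Cugbp1 siRNA, 7.61, 7.37 and 7.31 after Mbnl1 siRNA and 7.74 ± 0.06 in the controls, so that the siRNA groups lay on either side of the control mean (difference 0.54, SE 0.08, limma adjusted p = 0.003408). The difference was smaller or reversed in its brightest probe sets. These read 9.26 against 9.03, 9.25 against 9.27 and 8.83 against 9.02 after Cugbp1 siRNA and Mbnl1 siRNA. Some dimmer probe sets differed more, such as 7.74 against 6.675 and 7.78 against 6.79, with Mbnl1 siRNA means below the low-intensity cut-off. Chrng is a textbook target of myogenic factors through E-boxes. Its RefSeq start-site window (GRCm38.p6, chr1:87205561-87205860, plus strand) is shown with the E-box CAGCTG in capitals, which was found at positions -155 and -132.
Chrng: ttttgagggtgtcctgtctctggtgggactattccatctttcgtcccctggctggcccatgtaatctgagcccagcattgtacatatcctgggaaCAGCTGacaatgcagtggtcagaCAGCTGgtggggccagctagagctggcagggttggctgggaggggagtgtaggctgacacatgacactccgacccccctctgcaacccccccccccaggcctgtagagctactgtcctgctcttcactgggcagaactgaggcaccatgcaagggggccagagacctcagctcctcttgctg
This E-box stood in 16.3% of all promoter windows, in 15.9% of those of tested genes and in 17.9% and 17.8% of those of genes called higher after Cugbp1 siRNA and Mbnl1 siRNA. Within the list of myogenic regulators and fusion genes 3 of 23 windows had it (13%).

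Genes for cholesterol synthesis and uptake were the list with the highest share of called members, and most of those called were higher after Cugbp1 siRNA. Of 23 genes 10 were higher after Cugbp1 siRNA and 1 after Mbnl1 siRNA (47.8%, beside 9.38% of all genes), and the median over the 23 was 0.16. Lss, the lanosterol synthase, read 10.04, 10.12 and 10.14 after Cugbp1 siRNA, 9.66, 9.73 and 9.71 after Mbnl1 siRNA and 9.83 on each control array (difference 0.40, SE 0.04, limma adjusted p = 0.0004856). The siRNA groups lay on opposite sides of the controls without overlap. Mevalonate kinase, Mvk, was 9.35 ± 0.13 against 8.99 ± 0.07, and the sterol regulatory factor Srebf1 9.70 ± 0.07 against 9.39 ± 0.05. The exception was Insig2, which retains that factor in the endoplasmic reticulum, at -0.21; it kept its call without Cugbp1 siRNA replicate 3 (adjusted p 0.0195) and lost it without any of the other 5 siRNA arrays (up to 0.163). The count of 10 was 6 without Cugbp1 siRNA replicate 2 or Mbnl1 siRNA replicate 1.

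Counted in either direction, the cell cycle list was called at a share near that of all genes (9.38%). Of its 66 genes 7 (10.6%) were called, all higher after Cugbp1 siRNA (4.3% of all genes were), with a median of 0.04. They were led by Cdk6, its partner cyclin D1 (Ccnd1, 11.56 ± 0.04 against 11.29 ± 0.03) and the phosphatase Cdc25a (0.24). Ccnd1 stood at 11.62 ± 0.02 in the controls, so that its Mbnl1 siRNA arrays were the low ones. Of 21 glycolysis genes 4 were higher after Cugbp1 siRNA and 1 after Mbnl1 siRNA (23.8%, beside 9.38% of all genes; median 0.05), led by the lactate transporter Slc16a1 (0.36). The cell cycle count was 4 without Cugbp1 siRNA replicate 1 or 3 or Mbnl1 siRNA replicate 3 and 3 without Mbnl1 siRNA replicate 1 or 2, and the glycolysis count was 2 without Mbnl1 siRNA replicate 1 and 1 without Mbnl1 siRNA replicate 2.

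**Figure D4:**
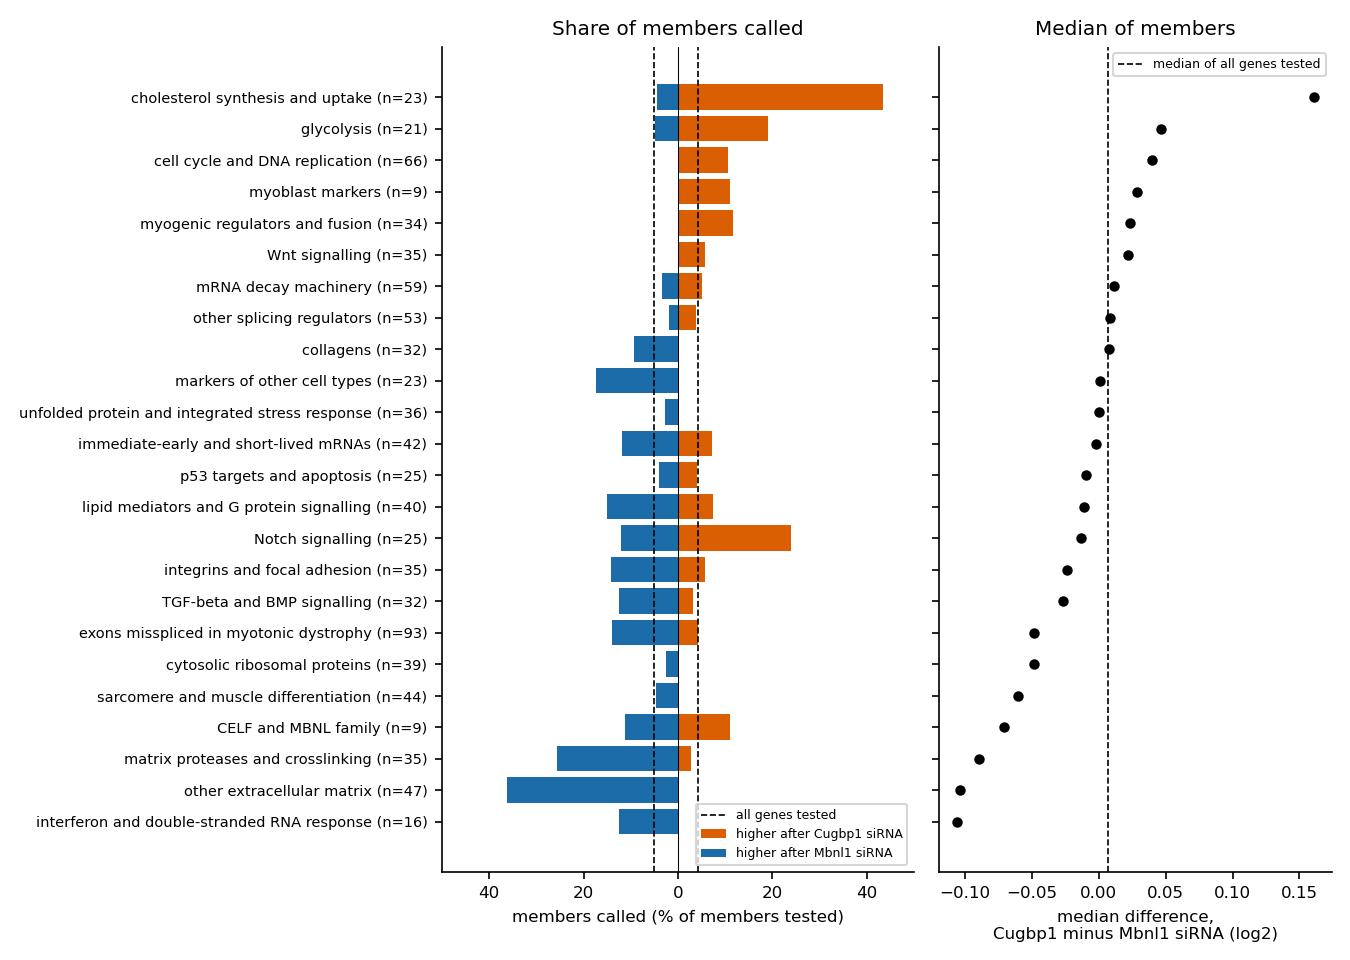
Left, share of the tested members of each gene list shown that were called (x axis, %; blue to the left, higher after Mbnl1 siRNA; orange to the right, higher after Cugbp1 siRNA), with dashed lines at the shares of all genes, 5.08% and 4.3%. Right, median difference of the members (log2), from -0.11 for interferon genes to 0.16 for cholesterol genes, with the median of all genes dashed.

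Genes of cell-to-cell signalling were called in both directions. In the Notch pathway 6 of 25 genes were higher after Cugbp1 siRNA and 3 after Mbnl1 siRNA (36%, beside 9.38% of all genes; median -0.01). The receptor Notch1 read 8.66, 8.84 and 8.94 after Cugbp1 siRNA, 8.45, 8.38 and 8.44 after Mbnl1 siRNA and 8.15 ± 0.03 in the controls (difference 0.39, SE 0.06, limma adjusted p = 0.004842). Jag2, a ligand, was 8.99 ± 0.03 against 8.69 ± 0.03, and Ncstn, a subunit of the protease that releases the receptor's intracellular part, 9.60 ± 0.05 against 9.29 ± 0.01. The pathway's DNA-binding factor Rbpj was lower after Cugbp1 siRNA, 9.29 ± 0.08 against 9.61 ± 0.09 with controls of 9.57 ± 0.02. The count of 6 was 3 without Mbnl1 siRNA replicate 2, and the count of 3 was 2 without Cugbp1 siRNA replicate 3 and 1 without any of the other 5 siRNA arrays.

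Lipid mediator and G protein genes differed in both directions, 3 of 40 higher after Cugbp1 siRNA and 6 higher after Mbnl1 siRNA (22.5%, beside 9.38% of all genes; median -0.01). Enpp2, the autotaxin that makes lysophosphatidic acid, read 7.81, 8.01 and 7.95 after Cugbp1 siRNA, 8.87, 8.59 and 8.57 after Mbnl1 siRNA and 7.08 ± 0.11 in the controls (difference -0.75, SE 0.09, limma adjusted p = 0.0007074). The phosphatase Plpp3, which degrades that lipid, ran the other way at 9.01 ± 0.04 against 8.50 ± 0.09, as did its receptor Lpar2, 8.03 ± 0.12 against 7.61 ± 0.13. Sgms2, a sphingomyelin synthase, was low after Cugbp1 siRNA alone, at 8.79 ± 0.10 beside 9.45 ± 0.05 after Mbnl1 siRNA and 9.56 ± 0.02 in the controls. Of 42 immediate-early and short-lived mRNAs 3 were higher after Cugbp1 siRNA and 5 after Mbnl1 siRNA (19%, beside 9.38% of all genes), led by Rgs2, Ccn2, Btg2 (-0.34) and Nr4a2 (-0.30). Btg2 was called without Cugbp1 siRNA replicate 3 or Mbnl1 siRNA replicate 2 and lost its call without any of the other 4 siRNA arrays, with an adjusted p of up to 0.0789. Dusp4, Ccl2 and Plk3 had differences of 0.14 to 0.21. The list's count of 3 was 2 without Cugbp1 siRNA replicate 3, 1 without Cugbp1 siRNA replicate 1 or Mbnl1 siRNA replicate 3, and none without the other 3 arrays. Of 16 interferon and double-stranded RNA response genes 2 were higher after Mbnl1 siRNA (12.5%, beside 9.38% of all genes in either direction and 5.08% in this one, median -0.11). They were Ifit2 (6.92 ± 0.11 against 7.42 ± 0.11) and Tlr3 (-0.26), the receptor for double-stranded RNA. Ifit2 rests on 3 probe sets, and its means after Cugbp1 siRNA and in the controls (6.82) lay below the low-intensity cut-off. Tlr3 had an adjusted p of 0.0546 without Mbnl1 siRNA replicate 2.

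RNA-binding and housekeeping lists held no larger share of called genes than the 9.38% of all genes. Of 53 other splicing regulators 3 were called (5.66%, median 0.0085), and of 59 genes of mRNA decay 5 (8.47%), among them the poly(A) ribonuclease Parn (0.36) and the exosome nuclease Dis3 (0.33), higher after Cugbp1 siRNA, and Tnrc6b (-0.35), a scaffold of microRNA silencing, higher after Mbnl1 siRNA. Of the cytosolic ribosomal protein genes 1 of 39 was called (2.56%), of the unfolded protein and stress response genes 1 of 36 (2.78%), of p53 targets 2 of 25 (8%) and of Wnt genes 2 of 35 (5.71%). Genes known to hold exons misspliced in myotonic dystrophy were called more often at the gene level, 17 of 93 (18.3%, median -0.05): 4, Mbnl1 included, were higher after Cugbp1 siRNA and 13 after Mbnl1 siRNA, led by Sorbs2, Pdlim3 (-0.36) and Fn1. Pdlim3 lost its call without Mbnl1 siRNA replicate 1 (adjusted p 0.0589) or 3 (0.0523). The count of 13 was 8 without Cugbp1 siRNA replicate 2, 7 without Mbnl1 siRNA replicate 1 and 6 without Mbnl1 siRNA replicate 2 or 3.

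Exon usage, the value of a probe set minus the value of its gene on the same array, differed for few probe sets. Of 158713 probe sets 44 (0.0277%) were called in limma, 23 (0.0145%) relatively higher after Cugbp1 siRNA and 21 (0.0132%) relatively higher after Mbnl1 siRNA, in 31 of 11374 genes (0.273%). Of these, 3 lie in Celf1 and 7 in Mbnl1, the targeted genes, and 34 lie in 29 other genes. Most called probe sets fell into 2 classes. In 19 probe sets of 15 genes the probe set's own level differed at least 1.5-fold while its gene differed less. In 18 probe sets of 11 genes the gene differed at least 1.5-fold and the probe set less. The 11 are the targets Celf1 and Mbnl1, and Stmn4, Cmah, Erlin2, Ccdc80, Ngfr, H4c12, Rgs2, Eif5a2 and Il1rn. The called probe set of Ngfr read 8.44 after Cugbp1 siRNA and 8.40 after Mbnl1 siRNA, and that of Rgs2 7.17 after both. These probe sets thus did not share the differences of their genes given above. Other called probe sets, such as those of Chrng and Zmiz1, fell into neither class. This division was made after the values were seen, and which exon or transcript end a probe set covers is not analysed here. The exon results rest on all 6 arrays: 12 to 22 probe sets were called when 1 was left out (13, 14 and 22 without Cugbp1 siRNA replicates 1, 2 and 3; 17, 12 and 13 without Mbnl1 siRNA replicates 1, 2 and 3), and of 29 probe sets named by rule 9 were called in all 6 of these fits and 13 in none.

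Probe sets of Myl6, Mia2, Npnt and Ndrg4 stood higher after Cugbp1 siRNA. Of these genes Npnt was called at the gene level, in the opposite direction (-0.26, limma adjusted p = 0.03535), and the other 3 were not called. In Myl6, the non-muscle and smooth muscle myosin essential light chain, the probe set read 12.28, 12.13 and 12.07 after Cugbp1 siRNA, 11.03, 10.84 and 10.95 after Mbnl1 siRNA and 11.68, 11.61 and 11.64 in the controls. The siRNA groups lay on opposite sides of the controls, usage differed by 1.17 (SE 0.10, limma adjusted p = 0.002845), and the other 14 probe sets of the gene differed by -0.10 to 0.05. In Mia2, an endoplasmic reticulum export protein, the probe set read 8.17, 8.70 and 8.73 against 6.92, 6.83 and 6.81, with 7.53, 7.28 and 7.12 in the controls (usage difference 1.74, SE 0.15, limma adjusted p = 0.002597), again with the controls in between. These probe sets of Myl6 and Mia2 were called in each fit that left out an array. The Mia2 probe set lay below the low-intensity cut-off on every Mbnl1 siRNA array. In Npnt, the matrix protein nephronectin, the probe set read 9.07, 9.42 and 9.46 after Cugbp1 siRNA, 7.56, 7.64 and 8.39 after Mbnl1 siRNA and 9.88, 9.76 and 9.61 in the controls, with the Mbnl1 siRNA arrays the low ones (usage difference 1.71, SE 0.18, limma adjusted p = 0.0109). The Ndrg4 probe set read 8.52, 8.45 and 8.53 against 7.30, 6.83 and 7.09, with 8.22, 7.77 and 8.20 in the controls (usage difference 1.34, SE 0.15, limma adjusted p = 0.01581). The Npnt call was kept only without Mbnl1 siRNA replicate 3 (adjusted p 0.00781; 0.0614 to 0.0974 without another array) and the Ndrg4 call only without Mbnl1 siRNA replicate 1 (0.043; 0.0739 to 0.134). Of 48 Col6a3 probe sets, for a chain of collagen VI, 2 were called, with usage differences of 1.21 and 1.26, while the gene differed by -0.24 and was not called; the second had an adjusted p of 0.0597 without Cugbp1 siRNA replicate 1 and 0.0522 without replicate 2.

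Single probe sets of Dnm2, Nasp, Wnk1, Sec31a, Mpdz and Synj2 stood higher after Mbnl1 siRNA. The Dnm2 probe set, in the gene of the membrane-fission GTPase dynamin 2, read 9.97, 9.88 and 10.17 after Mbnl1 siRNA, 8.69, 8.89 and 8.88 after Cugbp1 siRNA and 8.88, 8.35 and 8.41 in the controls (usage difference -1.13, SE 0.14, limma adjusted p = 0.03196). That of Nasp, a histone chaperone, read 8.06, 8.07 and 8.30 against 6.75, 6.60 and 6.81, with 6.04, 6.58 and 6.30 in the controls (usage difference -1.31, SE 0.17, limma adjusted p = 0.03368). In both genes the Mbnl1 siRNA arrays lay above all others, and the genes as a whole differed by -0.05 and -0.12, neither called. The Nasp probe set lay below the low-intensity cut-off on every Cugbp1 siRNA and control array. In Wnk1, a kinase that regulates ion transport, 2 of 62 probe sets were called. The first read 10.25, 10.13 and 10.22 after Mbnl1 siRNA, 8.95, 8.84 and 9.06 after Cugbp1 siRNA and 9.16, 9.07 and 9.10 in the controls, and the second 10.28, 10.18 and 10.20, 9.08, 9.03 and 9.20, and 9.11, 9.22 and 9.14 (usage differences -1.08 and -0.94, limma adjusted p = 0.0109 and 0.03058). The Sec31a probe set, in a coat protein of transport vesicles, differed by -0.93, that of the scaffold gene Mpdz by -0.82 and that of the phosphatase gene Synj2 by -0.82. In Tor1aip2 3 of 12 probe sets were called, and there the Cugbp1 siRNA arrays were the low ones: the leading probe set read 8.04, 8.14 and 8.46 after Cugbp1 siRNA, 9.41, 9.37 and 9.54 after Mbnl1 siRNA and 9.17, 8.98 and 9.23 in the controls. Without an array the adjusted p was 0.0982 to 0.207 for Dnm2, 0.116 to 0.213 for Nasp, 0.056 to 0.107 and 0.0912 to 0.16 for the Wnk1 probe sets, 0.0805 to 0.242 for Sec31a, 0.0842 to 0.242 for Synj2, 0.0458 (without Cugbp1 siRNA replicate 1) to 0.155 for Mpdz and 0.0198 (without Cugbp1 siRNA replicate 3) to 0.155 for Tor1aip2.

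**Figure D5:**
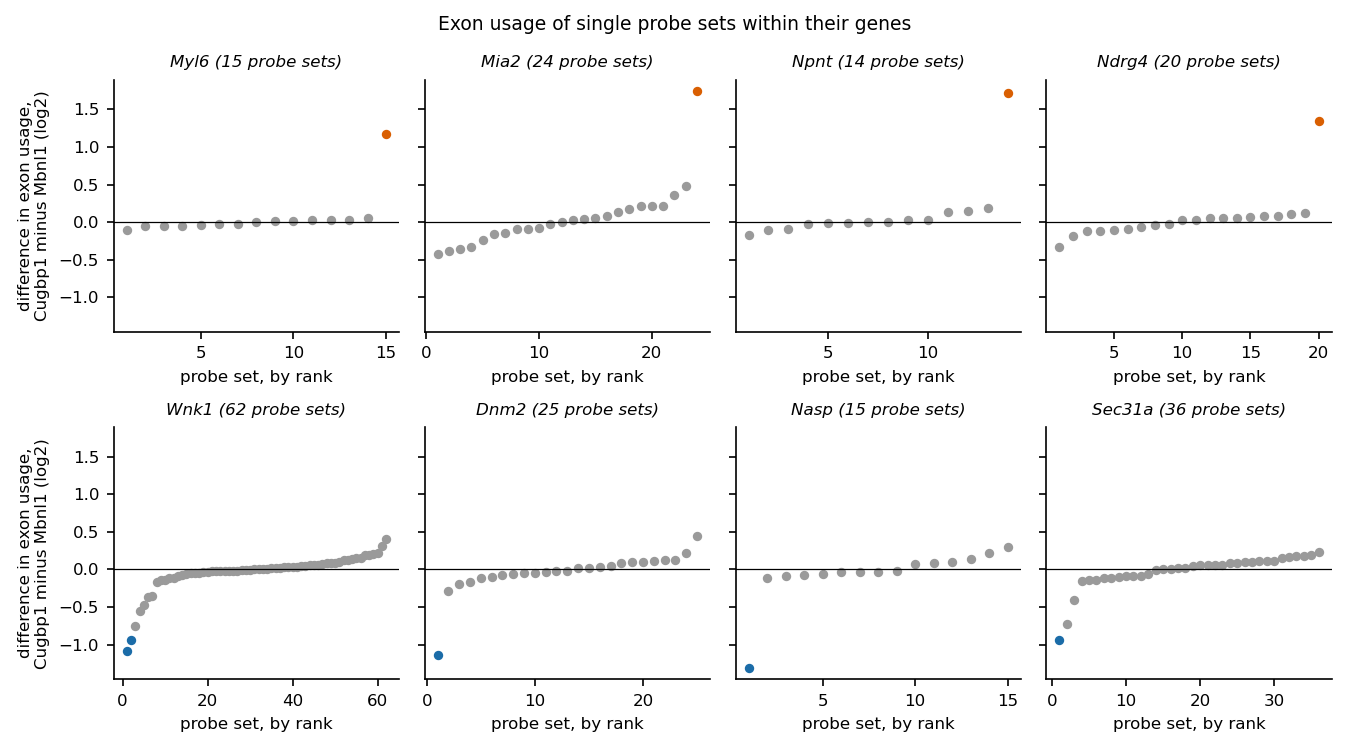
Difference in exon usage (Cugbp1 siRNA minus Mbnl1 siRNA, log2, y axis) of every kept probe set of 8 genes, ordered by value and not by position (x axis), with called probe sets in orange (relatively higher after Cugbp1 siRNA) or blue (relatively higher after Mbnl1 siRNA) and others in grey. In Myl6 the called probe set lies at 1.17 while the rest lie between -0.10 and 0.05.

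Among genes known to hold exons misspliced in myotonic dystrophy, 13 of 2503 probe sets were called, in 6 of 92 genes. Over all genes tested for usage, 44 of 158713 probe sets (0.0277%) were called, in 31 of 11374 genes (0.273%). Of the 13, 7 lie in Mbnl1, 2 in Wnk1 and 1 each in Dnm2, Fgfr1, Ldb3 and Slain2. Most of the 13 thus lie in an siRNA target, whose gene value itself differed by 1.39. The probe set of Fgfr1, a fibroblast growth factor receptor, read 10.60, 10.72 and 10.73 after Cugbp1 siRNA, 11.44, 11.24 and 11.24 after Mbnl1 siRNA and 10.54, 10.43 and 10.48 in the controls. That of Ldb3, the Z-disc protein whose exons change in the disease, read 9.03, 8.98 and 9.10 against 9.90, 9.76 and 9.85, with 9.06, 9.03 and 9.19 in the controls. In both the Mbnl1 siRNA arrays lay above all others, with usage differences of -0.69 (SE 0.09, limma adjusted p = 0.03196) and -0.68 (SE 0.07, limma adjusted p = 0.0109). The Slain2 probe set was the low one there, with 9.61, 9.61 and 9.78 after Mbnl1 siRNA against 10.58, 10.41 and 10.30 after Cugbp1 siRNA (usage difference 0.70, SE 0.09, limma adjusted p = 0.0406). None of these 3 was called when any array was left out, with adjusted p of 0.0879 to 0.205 for Fgfr1, 0.06 to 0.155 for Ldb3 and 0.0842 to 0.242 for Slain2.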

How the data were processed

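Per the submitters' processing notes, the authors made the deposited values with RMA in Affymetrix Expression Console (build mm9); no software version is stated there. The deposited table gives the intensity of 1195555 probe sets on 9 arrays on a linear scale, and log2 was taken here. The platform annotation gave 316997 probe sets exactly 1 symbol; others were not named. Probe sets with a mean over the 9 arrays at or above the 75th percentile (log2 7.00) were kept, 168803 of them with 1 symbol. Gene values are the median polish, over all 9 arrays, of at least 3 kept probe sets. Usage was tested in genes with at least 4. All 9 arrays entered the limma fit (limma 3.58.1, R 4.3.3, data.table, version 1.17.8), without a replicate block. The number of arrays limits the precision. Genes were named by rule: the 14 called genes of largest difference in each direction with at least 5 probe sets, 4 with fewer, and up to 4 called members of each list in each direction. The 14 also had to show no overlap of the siRNA groups and a mean of at least log2 7.00 in both. Leading probe sets had to show no overlap in usage. The steps were tested on simulated data. Members and gene lists were chosen with earlier results of these data known. Alternatives covered normalisation, filters, gene summary, spread, the replicate block and left-out arrays. 1 gene list is not reported here.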

Additional observations from a re-analysis of the deposited data

How the results depend on the processing

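The differences of Celf1 and Mbnl1 kept their direction and call in every alternative run, at -1.46 to -1.25 and 1.17 to 1.46, and the number of genes at least 1.5-fold apart was 56 to 75. The call counts moved more. Without the filter on low values 641 genes were called (264 higher after Cugbp1 siRNA, 377 higher after Mbnl1 siRNA), 558 of them among the 1186, and no probe set was called for exon usage by limma, with 18875 of 310095 at an unadjusted p under 0.05. The called probe sets numbered 24 in a fit of the 6 siRNA arrays alone, 20 with the replicate number as a block and 554 with diffSplice, which called 40 of the 44. In the main run the gene value includes the probe set itself. With the gene value taken from the other probe sets, 44 were called, of which 34 were among the 44 of the main run. There 3 of the 29 probe sets named by rule lost their call. When each siRNA array was left out in turn, 637 to 1148 genes were called, 233 to 637 higher after Cugbp1 siRNA and 365 to 665 higher after Mbnl1 siRNA, and 12 to 22 probe sets. Deviations from the group means had correlations of 0.0958, -0.0225 and 0.124 between same-numbered siRNA arrays. Between differently numbered arrays they were -0.13 to 0.0352. These values are all small and do not settle whether replicate numbers pair the arrays. The replicate block gave 880 called genes, 373 and 507 by direction. Other settings gave 960 (6 siRNA arrays only) to 1422 (mean of probe sets) called genes. Repeating the quantile normalisation changed the split by direction to 627 and 644. Uncalled differences near 0 changed sign: Msc was 0.0028 with quantile normalisation and 0.051 with the mean of probe sets; Pax7 was 0.0044 with quantile normalisation, 0.00029 with centred arrays, 0.040 without the filter, 0.0060 with the filter on 6 arrays, 0.038 in the 6-array fit and 0.049 with the mean; Itga7 was -0.0045 with the mean, Celf5 0.0083 in the 6-array fit, and Celf3 0.0018 and Celf6 -0.042 without the filter. With an array left out the range was -0.063 to 0.025 for Celf2, -0.052 to 0.070 for Msc, -0.036 to 0.066 for Pax7, -0.042 to 0.052 for Celf6, -0.0066 to 0.068 for Chrna1, -0.16 to 0.0079 for Celf4 and -0.0095 to 0.045 for Itga7. The causes were not tested. The number of arrays, 3 per siRNA, and signal near background limit small differences.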

Other observations

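The lists of this section were chosen after the values had been seen, and their counts are descriptions beside the 9.38% of all genes called; they were not run under the alternatives. Of 42 antioxidant and glutathione genes 13 were higher after Cugbp1 siRNA and 3 after Mbnl1 siRNA (38.1%, median difference 0.08). Besides Hmox1, those higher after Cugbp1 siRNA included the glutathione transferase Gsta3 (0.53), the glutaredoxin Glrx (0.45) and Gclm (0.41), a subunit of the enzyme that limits glutathione synthesis. Gstk1 (-0.91) and the secreted glutathione peroxidase Gpx3 (-0.58) were higher after Mbnl1 siRNA. Of 34 fatty acid and phospholipid synthesis genes 8 were higher after Cugbp1 siRNA and 4 after Mbnl1 siRNA (35.3%, median 0.09). Acly, which supplies cytosolic acetyl-CoA, was 0.34 higher after Cugbp1 siRNA, and Fasn, the fatty acid synthase, 0.21. The elongases Elovl4 (-0.52) and Elovl7 (-0.50) were higher after Mbnl1 siRNA.

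Of 30 semaphorin, neuropilin and plexin genes 4 were called (13.3%, median -0.01), and all 4 are semaphorins higher after Mbnl1 siRNA: Sema3d (-0.84), Sema7a (-0.70), Sema3c (-0.62) and Sema6a (-0.28). Of 19 acetylcholine receptor and neuromuscular junction genes 3 were higher after Cugbp1 siRNA and 1 after Mbnl1 siRNA (21.1%). The receptor subunit Chrnd (0.42) was higher after Cugbp1 siRNA, as was Chrng (0.54), and the receptor-clustering kinase Musk (-0.22) was higher after Mbnl1 siRNA. The Chrng difference was smaller or reversed in its brightest probe sets.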
